A study of Mus musculus with 6 samples.

Results

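Idua, Ids, Sgsh, Naglu, Hgsnat, Gusb and Arsg encode lysosomal enzymes that degrade heparan sulfate (HS). They were chosen by gene symbol, as 7 of the 43280 rows of the unfiltered count table; the rule uses no measured value. RNA was sequenced from submandibular glands (SMGs) of female mice, 3 libraries labelled WT and 3 labelled DKO, numbered 1, 4 and 5 in each group. The comparison asks which transcripts differ between glands of wildtype mice and glands of mice lacking both Hs3st3a1 and Hs3st3b1, which encode HS 3-O-sulfotransferases. DKO mice carry a frameshift deletion in Hs3st3a1 made by zinc finger nucleases on an allele of Hs3st3b1 that holds a LacZ cassette. All mice were on a C57BL/6 background, and the study describes the compared animals as adult littermates. The study describes several founder lines of the deletion, and which line supplied these glands is not given in the sources used here. Both alleles were inherited through the germ line, so every cell of the gland carried them.

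HS chains are long sulfated sugars attached to core proteins of the cell surface and the basement membrane. After uptake they reach the lysosome, where enzymes remove 1 group at a time from the end of the chain, so that each enzyme acts only once the previous one has exposed its substrate. Sulfatases remove sulfate groups, glycosidases remove sugars, and Hgsnat adds an acetyl group that Naglu needs for its step. Inherited loss of a single enzyme of this set leads to storage of HS fragments, as in the mucopolysaccharidoses. Arsg is the sulfatase that removes the 3-O-sulfate of glucosamine, the group that the enzymes deleted in DKO mice add.

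WT and DKO stand for the libraries so labelled. None of the 7 transcripts passed a DESeq2 adjusted p under 0.05 between the libraries labelled DKO and those labelled WT. Across the 18606 rows tested, 2.9% passed that threshold, 1.02% as higher and 1.88% as lower in DKO, so 0 of 7 is near the background. No 95% interval of a member included a doubling or a halving. Arsg was the only member whose values did not overlap between the groups, with 117.1 ± 8.76 (SD, n = 3) normalized counts in DKO glands against 94.99 ± 13.7 (SD, n = 3) in WT glands. Groups did not overlap for 20.3% of all rows tested, and 9.85% were higher in every DKO library, so a single member of this kind is near the background. Normalized counts are raw counts divided by the DESeq2 size factor of the library.

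Total counts ranged from 23674258 to 29611975 per library. The labels do not say whether the libraries came from separate animals, and p-values measure the spread between libraries. The targeted genes did not separate the groups. Raw counts of Hs3st3b1 ranged from 173 to 261 among WT and from 120 to 255 among DKO libraries (log2 fold change -0.04, DESeq2 adjusted p = 0.976), and those of Hs3st3a1 from 8 to 15 over all 6. Counts by gene do not locate reads within a gene. The genotype of these libraries was not checked otherwise here, so the groups rest on the labels alone. The study reports sequencing of the deletion, PCR for the LacZ cassette, and no expression of either gene by qPCR in adult DKO glands. Those checks were not repeated here. The libraries labelled WT 5 and DKO 1 stood apart in secretory genes of the neighbouring sublingual and parotid glands. Summed normalized counts of Muc19, Amy1 and Bpifa2 were 159334 and 7377 there and 269.7 to 436.4 in the other 4 libraries. WT 5 was high in all 3 genes, and DKO 1 in Muc19 and Bpifa2 only. Amy1 had 24742 normalized counts in WT 5 and 224.9 in DKO 1, against 131.4 to 256.3 in the other 4. Fold changes of the members without this pair are given beside those from all 6 libraries. All 5 acinar markers of the gland, among them the water channel Aqp5, were counted in every library, with summed normalized counts of 222006 to 370794.

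The members lie on 4 chromosomes of GRCm38. By the GENCODE M21 annotation, Naglu (chr11:101070012-101077672, plus strand), Arsg (chr11:109473374-109573330, plus strand) and Sgsh (chr11:119343425-119355536, minus strand) share chromosome 11 with the targeted genes, 36.5, 45.0 and 54.8 Mb from Hs3st3a1. Idua (chr5:108660331-108684557, plus strand) and Gusb (chr5:129989011-130003049, minus strand) are on chromosome 5, Hgsnat (chr8:25944453-25976753, minus strand) is on chromosome 8 and Ids (chrX:70343069-70365084, minus strand) is on the X chromosome. All are annotated as protein coding. The reads are unstranded, so reads in exons shared with a gene on the opposite strand cannot be assigned to either. Sgsh shares 955 bases, 21.6% of its exon length, with Card14, a row with only 58 counts over the 6 libraries. Idua shares 2.9% of its exon length with Dgkq, which had 2593 counts in all and a log2 fold change of 0.05 (DESeq2 adjusted p = 0.941). Arsg shares 1.2% with Slc16a6, which had 2051 counts and a log2 fold change of -0.19 (DESeq2 adjusted p = 0.764).

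Many lysosomal genes carry the E-box CACGTG near their start, the core of the element bound by Tfeb and its relatives, which activate lysosomal genes. RefSeq promoters of GRCm38.p6, 250 bases before to 50 after the start, were matched for 6 of the 7 members, all but Hgsnat. CACGTG, which reads the same on both strands, was found in Sgsh and Naglu and not in Idua, Ids, Gusb or either RefSeq start of Arsg. Both Arsg windows (chr11:109485642-109485941 and chr11:109543461-109543760) lie downstream of its GENCODE start at 109473374. That start was not searched. Across 32851 promoters of the same length, 7.15% held it. The pair of promoters that carry it are shown 5′ to 3′ on the strand of the gene, with the E-box in capitals.

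Sgsh (chr11:119355461-119355760, minus strand): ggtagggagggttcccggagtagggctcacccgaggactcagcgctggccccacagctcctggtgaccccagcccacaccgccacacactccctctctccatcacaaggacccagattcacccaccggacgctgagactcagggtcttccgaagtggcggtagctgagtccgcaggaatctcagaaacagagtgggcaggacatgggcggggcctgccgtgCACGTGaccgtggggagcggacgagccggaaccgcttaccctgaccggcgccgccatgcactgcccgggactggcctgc

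Naglu (chr11:101069844-101070143, plus strand): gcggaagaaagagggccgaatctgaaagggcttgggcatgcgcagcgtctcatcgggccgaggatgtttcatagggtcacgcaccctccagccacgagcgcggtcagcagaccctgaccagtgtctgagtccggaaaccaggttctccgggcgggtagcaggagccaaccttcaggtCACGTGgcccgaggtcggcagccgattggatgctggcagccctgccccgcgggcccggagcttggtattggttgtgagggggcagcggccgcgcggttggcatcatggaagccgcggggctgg

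The E-box begins 29 bases before the start in Sgsh and 73 bases before it in Naglu. Both also read as the longer TCACGTG on one strand, which 3.77% of promoters held. Among the other lists, the E-box was found in 8 of 25 lysosomal hydrolases and membrane proteins with a promoter entry and in 4 of 11 subunits of the V-ATPase, the pump that acidifies the lysosome. It was found in 3 of 4 genes of mannose 6-phosphate sorting, in 1 of 6 enzymes of other glycosaminoglycans and in 0 of 4 other genes of HS degradation. A match describes the letters in this window, not binding.

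Within a library, levels of different genes were compared as RPKM, the count divided by the exon length in kilobases and by the library total. Ids had the highest level, an RPKM of 8.99 ± 0.129 (SD, n = 3) in WT glands, followed by Hgsnat at 6.96 ± 0.197 (SD, n = 3). Gusb and Naglu came next with 2.91 ± 0.323 and 2.89 ± 0.167 (SD, n = 3), and their ranges overlapped. Idua and Sgsh, with 2.34 ± 0.189 and 2.23 ± 0.0737 (SD, n = 3), overlapped as well. Arsg was lowest at 0.980 ± 0.104 (SD, n = 3), so that the level of Ids was 9.26 ± 1.14 (SD, n = 3) times that of Arsg. Of the 6 pairs of neighbours in this order, 4 did not overlap in WT glands.

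In DKO glands Ids and Arsg again had the highest and the lowest mean level by this length, 7.44 ± 1.65 and 1.04 ± 0.156 (SD, n = 3). Ids and Hgsnat overlapped there, since Ids was the higher in 2 of 3 libraries, and Naglu and Idua overlapped too. Gusb stood below Naglu in 3 of 3 DKO libraries, with a ratio of 0.856 ± 0.0958 (SD, n = 3), against 1.004 ± 0.0645 (SD, n = 3) in WT glands. Parts of this order depended on the length used. With the longest annotated transcript in place of all exons, Gusb was above Naglu, at mean RPKM of 4.92 and 3.00 in WT and 3.76 and 2.70 in DKO glands, and Hgsnat was above Ids in DKO glands, at 7.94 and 7.64. With total counts in place of size factors, the median log2 fold change of all rows was -0.23, so RPKM values serve the order within a group and not the comparison between groups.

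**Figure D1:**
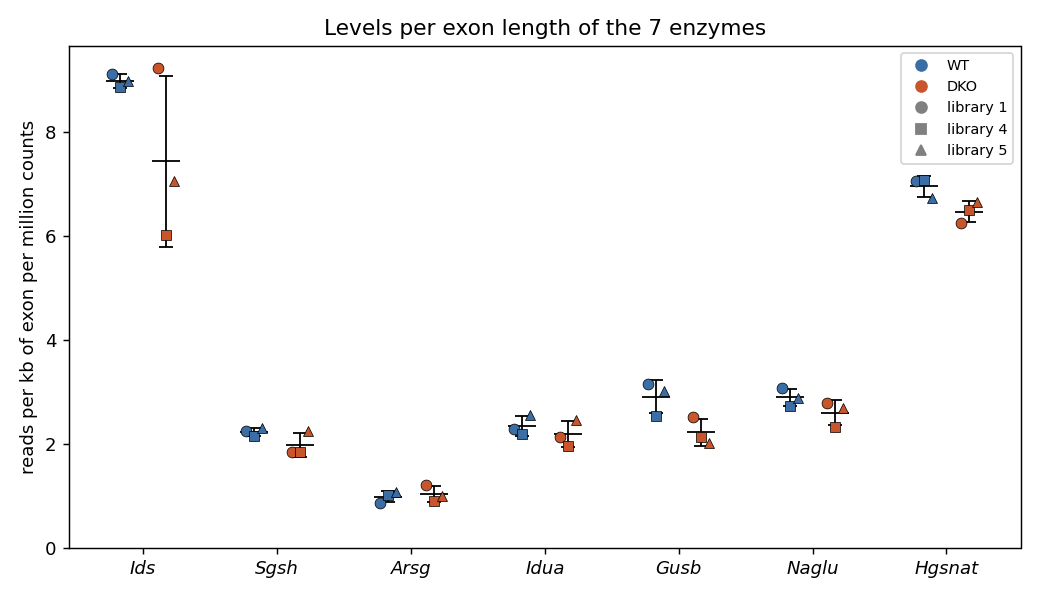
Levels of the 7 enzymes in RPKM (vertical axis, linear) in each WT and DKO library, with mean and SD (n = 3). Ids and Hgsnat are the highest, at 8.99 and 6.96 in WT glands, Arsg the lowest at 0.980, and the other 4 lie between, with lengths taken over all exons of a gene.

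The 3 sulfatases were considered first. Arsg, the 3-O-sulfatase, reached 79.17 normalized counts in WT 1, 103.7 in WT 4 and 102.1 in WT 5, against 126.2 in DKO 1, 108.7 in DKO 4 and 116.4 in DKO 5. Every DKO library was above every WT library, with WT 4 and DKO 4 the closest. For the other members, values are given in the same order of libraries. The log2 fold change was 0.30 (SE 0.23, 95% interval -0.14 to 0.75, DESeq2 adjusted p = 0.65). The interval corresponds to a change of between -9.37% and 67.7%, the widest of the 7 members, and Arsg had the fewest reads, 80 to 133 raw counts per library. Within WT glands the spread of Arsg, a coefficient of variation of 14.4%, exceeded that expected of counting alone, and WT 1 was the low library. Leaving out single libraries gave log2 fold changes from 0.19 to 0.37, and leaving out WT 5 and DKO 1 together gave 0.30.

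Arsg was also set against the other members in the same library, which needs no size factor. Its counts were 3.02%, 3.70% and 3.78% of the summed counts of the other 6 in WT glands and 4.53%, 4.16% and 4.13% in DKO glands. The means were 3.50% ± 0.418 and 4.27% ± 0.224 (SD, n = 3), and the groups did not overlap. Arsg was taken up here because its groups did not overlap, so these values restate that separation on another scale and were not tested. The ratio of the per-length levels of Ids and Arsg was 7.14 ± 0.496 (SD, n = 3) in DKO glands, and every DKO library was below every WT library.

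Ids, the iduronate-2-sulfatase, had 1091, 1193 and 1121 normalized counts in WT glands and 1265, 950.1 and 1075 in DKO glands. DKO 1 was above and DKO 4 and 5 below all 3 WT libraries. Its log2 fold change was -0.05 (SE 0.13, 95% interval -0.30 to 0.20, DESeq2 adjusted p = 0.94). Ids was the most abundant member, above 89.1% of all tested rows in mean count, and its interval, from -18.6% to 14.8%, was the narrowest of the 7. The DKO libraries varied with a coefficient of variation of 14.5%, against 4.65% in WT libraries and 3.07% from counting alone. Without DKO 4, the lowest library, the log2 fold change turned to 0.04, and without WT 5 and DKO 1 it was -0.18.

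Sgsh, the N-sulfoglucosamine sulfohydrolase that removes N-linked sulfate, had 231.6, 250.4 and 248.1 normalized counts in WT glands and 218.2, 250.9 and 296.3 in DKO glands. The DKO libraries spanned a range that contained all 3 WT values. The log2 fold change was 0.07 (SE 0.17, 95% interval -0.27 to 0.40, DESeq2 adjusted p = 0.941). It was -0.05 without DKO 5, the highest library, and 0.18 without WT 5 and DKO 1. Both Ids and Sgsh thus took their sign from a single DKO library.

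Of the glycosidases, Gusb, the beta-glucuronidase, had 336.5, 305.2 and 336.8 normalized counts in WT glands and 307.4, 300.0 and 272.1 in DKO glands. Only DKO 1 reached into the WT range, above WT 4. Gusb had the lowest fold change of the 7, with a log2 value of -0.15 (SE 0.14, 95% interval -0.43 to 0.13, DESeq2 adjusted p = 0.755). It was between -0.20 and -0.10 whichever library was left out, and -0.17 without WT 5 and DKO 1.

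Idua, the alpha-L-iduronidase, had 224.6, 242.6 and 262.4 normalized counts in WT glands and 241.0, 255.0 and 309.0 in DKO glands. DKO 5 was the highest of the 6 libraries and the other 5 overlapped. The log2 fold change was 0.14 (SE 0.17, 95% interval -0.19 to 0.47, DESeq2 adjusted p = 0.841), and without DKO 5 and the other libraries in turn it ranged from 0.03 to 0.21. Without WT 5 and DKO 1 it was 0.27.

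Naglu, the alpha-N-acetylglucosaminidase, had the lowest coefficient of variation of the 7 in both groups, with 191.0, 191.7 and 187.2 normalized counts in WT glands and 198.3, 191.3 and 213.3 in DKO glands. The 3 WT values had a coefficient of variation of 1.28%, less than the 7.08% that counting alone gives, so this closeness is no measure of the spread between glands. DKO 4 lay inside the WT range and the other DKO libraries above it. The log2 fold change was 0.08 (SE 0.17, 95% interval -0.24 to 0.40, DESeq2 adjusted p = 0.922), and 0.08 without WT 5 and DKO 1 as well.

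Hgsnat, the acetyltransferase of the lysosomal membrane, had 546.3, 618.2 and 544.6 normalized counts in WT glands and 555.0, 664.8 and 656.0 in DKO glands. DKO 4 and 5 were above all WT libraries and DKO 1 was not. The log2 fold change was 0.13 (SE 0.13, 95% interval -0.12 to 0.39, DESeq2 adjusted p = 0.767), a change of between -8.00% and 30.8%, and it was 0.18 without WT 5 and DKO 1.

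**Figure D2:**
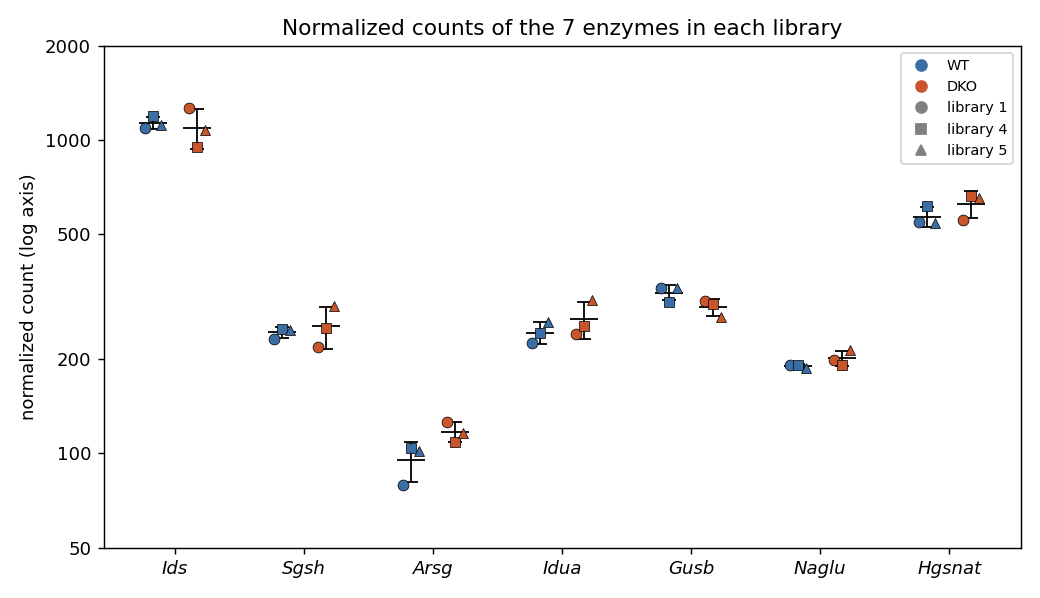
Normalized counts of the 7 enzymes (vertical axis, log scale) in each WT and DKO library, with mean and SD (n = 3) per group. The groups overlap for 6 members, and Arsg is the exception, with 79.17 to 103.7 in WT and 108.7 to 126.2 in DKO libraries.

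Over the list, 5 members had positive and 2 had negative log2 fold changes, with a median of 0.08 and a range of -0.15 to 0.30, beside a median of 0.00 over all rows tested. Without WT 5 and DKO 1 the members' median was 0.18. The median was -0.15 with total counts as size factors, where that of all rows was -0.23, and Idua, Sgsh, Naglu and Hgsnat turned negative. The members' median lay above that of all rows by a similar amount under both scalings. A change of size factors scales all rows of a library alike, so this similarity is no separate support. No member had an unadjusted p under 0.05, against 12.2% of rows. The edgeR quasi-likelihood test and limma-voom also called none of the 7, and they called 0.0537% and 0.0376% of all rows, so their thresholds were seldom reached by any gene.

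The summed normalized count of the members was 2700, 2905 and 2803 in WT glands and 2911, 2721 and 2938 in DKO glands. The means were 2802 ± 103 and 2856 ± 118 (SD, n = 3), a log2 ratio of 0.03, and the groups overlapped. The sulfatases Ids, Sgsh and Arsg held 44.7% ± 0.629 of the summed per-length level in WT glands and 43.5% ± 3.51 in DKO glands (SD, n = 3). The glycosidases Idua, Naglu and Gusb held 29.8% ± 1.48 and 29.3% ± 0.592 (SD, n = 3). Of single members, the share of Arsg was 3.59% ± 0.418 in WT and 4.31% ± 0.282 in DKO glands (SD, n = 3), that of Ids 32.9% and 30.9%, and that of Hgsnat 25.5% and 27.2%. These shares are given as a description, with no test.

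Profiles of the members over the 6 libraries were compared by z-scores, which scale counting noise and larger differences alike. Idua and Sgsh were the most alike, with a root mean square distance of 0.44 between their z-scored log2 normalized counts, and Naglu and Gusb the least, at 1.76. In WT glands the coefficients of variation of Naglu and Gusb were 1.28% and 5.56%, against 7.08% and 5.4% from counting alone. The distances therefore cannot show whether the members shared a profile. The mean profile of the 7 was lowest in WT 1 and highest in DKO 5, with z-scores of -1.38 and 1.72. Of 9891 other rows with a mean of at least 100 normalized counts, 2010016I18Rik, Pigv, Zkscan17, RP24-74O18.2 and Echdc3 were closest to that mean profile, at distances of 0.093 to 0.19 over 6 libraries. With so many rows and 6 libraries, near matches of this kind are a description only.

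Beyond the 7, the related genes of HS degradation considered were Arsk, Hpse, Hpse2, Sulf1 and Sulf2. Arsk, the lysosomal glucuronate-2-sulfatase, had 238.5, 199.6 and 186.3 normalized counts in WT glands and 146.1, 186.0 and 155.6 in DKO glands. Its groups did not overlap, by less than 1 normalized count between WT 5 and DKO 4, and its log2 fold change was -0.36 (95% interval -0.73 to 0.02, DESeq2 adjusted p = 0.403).

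Hpse, the heparanase that cuts HS chains internally, had the largest fold change among these genes. It had 48.49, 32.28 and 29.56 normalized counts in WT glands and 16.13, 12.54 and 13.84 in DKO glands, so every DKO library was below every WT library. The log2 fold change was -1.37 (SE 0.46, 95% interval -2.27 to -0.48), and the DESeq2 adjusted p of 0.0655 did not pass the threshold. The adjusted p was 0.151 in edgeR and 0.2 in limma-voom, and at least 0.0891 in DESeq2 whichever library was left out. Without WT 5 and DKO 1 the log2 fold change was -1.62. The row rested on 12 to 49 raw counts per library.

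Sulf1, a sulfatase that removes 6-O-sulfate from HS at the cell surface, had 122.7, 126.2 and 196.1 normalized counts in WT glands and 102.5, 74.21 and 91.08 in DKO glands. Its log2 fold change was -0.73 (95% interval -1.24 to -0.23), with a DESeq2 adjusted p of 0.0902, and it was -0.59 without WT 5 and DKO 1. Sulf2, the other enzyme of this pair, ranged from 127.7 to 268.0 in WT and from 144.2 to 394.7 in DKO glands, and its log2 fold change of 0.35 had an interval of -0.67 to 1.36. The sign of Sulf2 rested on DKO 1, since the log2 fold change was -0.15 without that library and -0.16 without WT 5 and DKO 1. Hpse2, a relative of heparanase without its enzyme activity, had 0 to 8 counts per library and received no adjusted p. In total, 0 of these 5 genes passed the DESeq2 threshold, 3 did not overlap between the groups (Arsk, Hpse and Sulf1, each lower in DKO, against 10.5% of rows), and the median log2 fold change was -0.73. With total counts as size factors, Hpse, Sulf1 and Arsk passed the threshold with adjusted p-values of 0.0177, 0.0125 and 0.0383 in DESeq2. That scaling called 1469 of the 18606 rows tested, against 539 in the fit reported, and the median log2 fold change of all rows was -0.23.

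**Figure D3:**
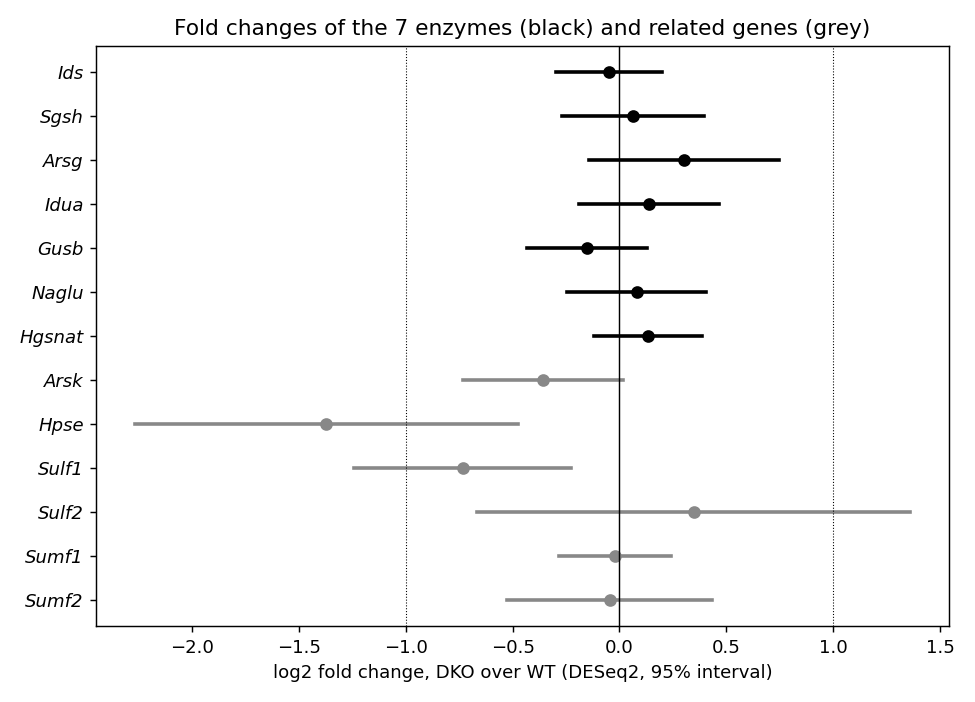
Log2 fold changes of DKO over WT from DESeq2 with 95% intervals (horizontal axis) for the 7 enzymes in black and for related genes in grey; dotted lines mark a doubling and a halving. The 7 enzymes lie between -0.15 and 0.30 and their intervals stay inside the dotted lines, while Hpse lies at -1.37.

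Sulfatases are made active by formylglycine-generating enzyme, encoded by Sumf1, whose product modifies the active site of each sulfatase, and Sumf2 encodes a related protein. Sumf1 had 376.3 ± 11.6 normalized counts in WT and 370.6 ± 23.3 in DKO glands (SD, n = 3), with a log2 fold change of -0.02 (95% interval -0.28 to 0.24, DESeq2 adjusted p = 0.978). Sumf2 had a log2 fold change of -0.05 (95% interval -0.52 to 0.43). The regulators Tfeb and Tfe3 had log2 fold changes of -0.05 (95% interval -0.34 to 0.23) and 0.02 (95% interval -0.23 to 0.27). None of the 8 regulators listed passed the test, and their median was 0.00. Among them Tfec, with 0 to 8 counts per library, received no adjusted p.

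The other lysosomal lists were counted in the same way. None of 8 enzymes that degrade other glycosaminoglycans passed (median log2 fold change -0.05), nor did any of 6 genes of mannose 6-phosphate sorting, which sends new enzymes to the lysosome (median 0.06), or of 15 V-ATPase subunits (median 0.12, 12 of them positive). With total counts as size factors these medians were -0.29, -0.18 and -0.12, beside -0.23 for all rows, and 1, 0 and 1 genes of the 3 lists passed. Of 31 other lysosomal hydrolases and membrane proteins, 0 rose, 2 fell and 29 did not pass (median -0.01), beside 1.88% of all rows that fell. In this list 8 genes had an unadjusted p under 0.05 in DESeq2, beside 12.2% of rows. With total counts as size factors 7 passed the threshold. That scaling called 1469 of the 18606 rows tested, against 539 in the fit reported. Neither of the genes that fell encodes an enzyme of HS degradation. Lipa, the lysosomal acid lipase, fell from 212.3 ± 39.5 to 134.8 ± 12.6 normalized counts (SD, n = 3; log2 fold change -0.66, DESeq2 adjusted p = 0.0448). Man2b1, the lysosomal alpha-mannosidase, fell from 4585 ± 138 to 3630 ± 314 (SD, n = 3; log2 fold change -0.34, DESeq2 adjusted p = 0.0218). These calls were not stable, since edgeR gave adjusted p-values of 0.159 and 0.2, and DESeq2 kept the call of Lipa in 1 and of Man2b1 in 2 of 6 fits that left out a library. Leaving out WT 5 gave 0.417 and 0.254, and leaving out WT 5 and DKO 1 together gave 0.615 and 0.32 (DESeq2 adjusted p).

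**Figure D4:**
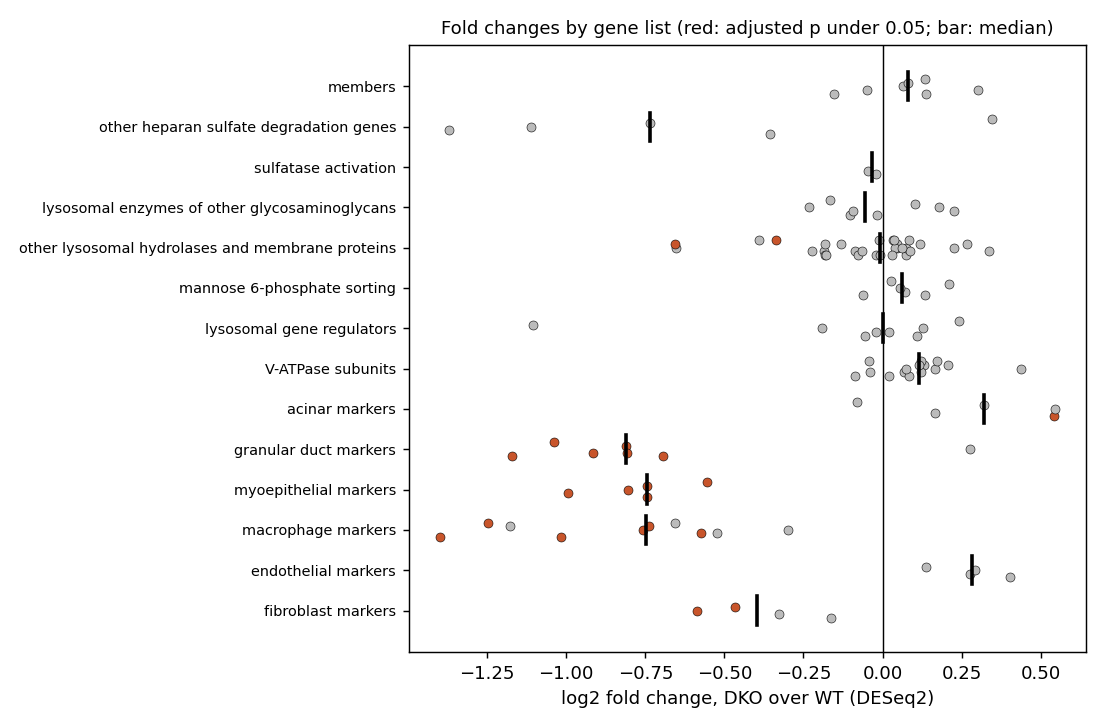
Log2 fold changes of DKO over WT from DESeq2 (horizontal axis) for each gene of the listed groups, in red where the adjusted p is under 0.05, with the median of each list as a bar. The medians of the members and of the lysosomal lists lie around 0, with 2 red points among the other lysosomal hydrolases (Lipa and Man2b1). The other HS degradation genes have a median of -0.73, with Hpse at -1.37. Among the regulators Tfec lies at -1.11, on 0 to 8 counts per library. The myoepithelial and macrophage markers lie below 0, as do the granular duct markers except 1 (Klk1, 0.28).

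Markers of several cell types moved between the groups. All 10 macrophage markers had negative log2 fold changes (median -0.75), 6 passed the DESeq2 threshold, and their summed normalized counts were 2900 to 4825 in WT and 1885 to 2675 in DKO libraries. No macrophage marker was at 0 in any library. The count of calls was 2 without WT 5 and DKO 1, 1 without DKO 4, 9 without WT 4 and 0 in edgeR. All 5 myoepithelial markers tested were lower (4 without WT 5 and DKO 1, 0 in edgeR), with summed normalized counts of 8300 to 9047 in WT and 4517 to 5861 in DKO libraries. Of 7 granular duct markers, 6 were lower (5 without WT 5 and DKO 1, 2 in edgeR). The other, Klk1, had a log2 fold change of 0.28 (DESeq2 adjusted p = 0.424). Summed normalized counts of the granular duct markers overlapped, at 326308 to 376812 in WT and 278506 to 367464 in DKO libraries. Klk1 made up 127764 to 184476 of these sums in WT and 177278 to 235348 in DKO libraries. Each of the other 6 was lower in every DKO library than in every WT library, against 10.5% of rows. Of 5 acinar markers, 1, Aqp5, was higher (0 without WT 5 and DKO 1, 0 in edgeR). Of 5 T cell markers, 4 were lower (median log2 fold change -3.42; 1 without WT 5 and DKO 1), on summed normalized counts of 33.26 to 198.9 in WT and 4.61 to 12.3 in DKO libraries. Of 4 fibroblast markers, 2 were lower (median -0.40; 2 without WT 5 and DKO 1), and of 5 B and plasma cell markers 1 was lower (median -2.20; 0 without WT 5 and DKO 1). In edgeR, 0 markers of these 3 lists passed. The B cell call, Ms4a1, rested on WT 1, with 61 raw counts there and 0 to 6 in the other libraries, and its groups overlapped. Summed normalized counts of the T cell markers were also highest in WT 1, at 198.9 against 33.26 in WT 4 and 103.0 in WT 5. None of 4 endothelial markers passed, and all had positive values (median 0.28). In whole glands, fewer cells of a type and less RNA per cell cannot be told apart. The part of these markers in the values of the members, of Hpse and Sulf1, and of Lipa and Man2b1 was not tested.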

How the data were processed

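Raw counts per gene symbol were deposited by the authors for 6 SMG libraries, made with the unstranded Nextera XT kit. The submitters' processing notes name STAR 2.5.2a, DESeq2, edgeR and limma and the builds GRCh38, GRCm38 and mm10. The counting tool and annotation are not given in the sources used here. The unfiltered deposited counts were used. The filtered counts and the normalized table were not used.

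Rows with at least 10 counts over the 6 libraries (18606 of 43280) were tested with DESeq2 1.42.0 in R 4.3.3, the tool, Wald test and adjusted p threshold of 0.05 that the study's methods name (median-of-ratios size factors of 0.867 to 1.12, two-sided, Benjamini-Hochberg adjustment). The row filter and the default independent filtering at 0.1 are not stated there, and the minimum fold change that the study also required was not applied. edgeR 4.0.16 and limma 3.58.1 (voom) were alternatives. Intervals are Wald 95% intervals. The script was tested on simulated data. Per-length levels used the union of GENCODE M21 exons, and 39379 row names (91.0%) matched 1 gene. No library pair within a group agreed within counting noise (chi-square per degree of freedom at least 16.8), and each library was counted as 1 replicate. That value does not show whether the libraries came from separate animals.

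The members and gene lists were chosen with earlier results of these data known. Named genes were the members, the targeted genes, Arsk, Hpse, Hpse2, Sulf1, Sulf2, Sumf1, Sumf2, Tfeb, Tfe3, the genes of the other lysosomal lists that passed the threshold, and the 5 rows closest to the members' mean profile. Marker genes were given as lists, except that Aqp5, Klk1, Ms4a1, Muc19, Amy1 and Bpifa2 were named. Card14, Dgkq and Slc16a6 were named for their exon overlap with members, and Tfec because it received no adjusted p. One gene of the rule is not reported here.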

Additional observations from a re-analysis of the deposited data

How the results depend on the processing

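Over the 15 alternative fits, 0 of 105 member values were called and 99 kept their direction; the lowest adjusted p was 0.125, for Gusb with total counts. The number of rows called was 539 in the fit reported, 10 in edgeR, 7 in limma-voom, 1469 with total counts as size factors and 183 without WT 5 and DKO 1, an alternative chosen after seeing the data. Leaving out single libraries gave 149 (without WT 5) to 817 (without WT 4), with 151, 170 and 166 without WT 1, DKO 4 and DKO 5.

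Total counts as size factors reversed Idua (-0.10), Sgsh (-0.17), Naglu (-0.15) and Hgsnat (-0.10), moved the members' median log2 fold change from 0.08 to -0.15 and reversed the log2 ratio of their summed counts from 0.03 to -0.20; the median of all rows moved by -0.23. Without WT 5 and DKO 1 the median was 0.18. Leaving out single libraries gave a median of 0.03 to 0.17, a summed ratio of 0.00 to 0.06, Ids from -0.16 to 0.044 (without DKO 4, reversed) and Sgsh from -0.053 (without DKO 5, reversed) to 0.17. With the longest transcript as length, Gusb was above Naglu in both groups and Hgsnat above Ids in DKO glands, and the level of Ids was 7.96 times that of Arsg in WT glands, against 9.26, and 8.61 to 9.68 when single libraries were left out.

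The replicate numbers did not pair the libraries. Deviations of same-numbered libraries correlated at -0.133, -0.024 and -0.259, and with the number as a block 343 rows and 0 members were called. Apart from the scaling, the causes of these shifts were not tested. Arsg, with 80 to 133 counts per library, had an interval that held a change of up to 67.7%.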
